A study of Homo sapiens with 24 samples.

Results

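The comparison set 2 small-cell lung cancer lines with high ISL1 (H187 and H209) against 2 with low ISL1 (H82 and SHP-77), all under the DMSO vehicle. It covered the 11408 genes listed for all 4 lines, out of 16796 listed for at least 1 line or comparison. Each line entered as the mean of 3 libraries, and the class difference is the mean of H187 and H209 minus the mean of H82 and SHP-77 on the log2 scale. Genes are called higher or lower below only where that difference passed edgeR's quasi-likelihood test (Benjamini-Hochberg adjusted p under 0.05) and ran the same way in each of the 4 high-low line comparisons, called pairs below. The study grew these human lines in RPMI-1640 with serum, treated them for 24 h with DMSO or with 0.1 nM lurbinectedin, and sequenced total RNA after depletion of ribosomal RNA. The design text states biological triplicates and names the lines' classes. The labels name no genetic change made to the lines, so a class is a pair of tumours from different people, and everything else that differs between those tumours moves with ISL1. The p-values measure the spread among libraries of these 4 lines and not among lines of a class.

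ISL1 is a LIM homeodomain transcription factor. It is known from spinal motor neurons, sensory and sympathetic neurons, the heart and the endocrine pancreas, where it works in complexes with LDB1 and other LIM factors. Small-cell lung cancer is a neuroendocrine lung tumour with frequent loss of RB1, and its lines are commonly sorted by lineage transcription factors, among them NEUROD1 and POU2F3, or by YAP1. NEUROD1 is a basic helix-loop-helix factor that drives neuroendocrine genes, and INSM1 is a zinc finger factor of the neuroendocrine programme.

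The DMSO libraries held 25542253 to 36415190 counts each, of which 95.3% to 95.9% fell in the shared genes. Libraries of a line had a Spearman correlation of at least 0.9977 across genes, and each pair differed by more than counting noise. Levels are read counts scaled to a common library total (CPM), adjusted by the trimmed mean of M-values, and a difference of 1 on the log2 scale is 2-fold. CPM do not correct for transcript length, so they compare lines and not genes. The lines carried neuroendocrine genes, though not evenly, and CHGA, a neuroendocrine marker, was listed for none of the 4 lines. NCAM1, a neural adhesion molecule, stood at 612 and 216 CPM in H187 and H209 against 185 and 349.7 in H82 and SHP-77, and SYP, a synaptic vesicle protein, at 48.0 and 76.4 CPM in H187 and H209 against 268 and 46.4 in H82 and SHP-77. DDC, the enzyme of amine synthesis, stood at 30.2 and 129.8 CPM in H187 and H209 against 3.54 and 693 in H82 and SHP-77. Of markers of other cells, 7 of 12 glial, 11 of 20 fibroblast and endothelial, 5 of 13 tuft and ionocyte and 8 of 20 immune genes were listed for at least 1 line. Listed for all 4 lines were 0 of the first 3 sets and 2 immune genes (CORO1A and CD68). Levels given per line are means of 3 libraries; a value after ± is the SD for a level and the SE for a difference. In bulk RNA, fewer cells with a transcript and less of it per cell cannot be told apart.

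ISL1 (hg38 chromosome 5, 51383124 to 51394729, plus strand) stood at 266, 263 and 249.6 CPM in the H187 libraries and at 213, 217 and 204 in H209, against 4.42, 3.72 and 3.96 in H82 and 0.946, 0.976 and 0.915 in SHP-77. The classes did not overlap, and the gap between H209 and H82, the nearest pair, was 5.69 on the log2 scale. ISL1 defined the classes, so its difference of 6.90 is a description and carries no test. Within the low class H82 stood above SHP-77, with no overlap between their libraries.

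Of the 11408 genes, 4449 met the rule, 39% in all, with 2233 (19.6%) higher and 2216 (19.4%) lower in the ISL1-high lines. These shares are the measure for each count of list members below. The adjusted p alone would have passed 10159 genes (89.1%). For 5710 of those the 4 line pairs disagreed in sign, 739 of them with a mean difference of at least 1. At least 2-fold in every pair were 620 genes (5.43%), of which 338 (2.96%) were higher and 282 (2.47%) lower, and 555 of the 620 are protein-coding. At least 4-fold in every pair were 125 genes (1.1%), 66 (0.579%) higher and 59 (0.517%) lower. At the edge of the 2-fold rule, USE1 lay just inside with a smallest pair difference of -1.0001 and NOL4L just outside with 0.9999. With each line taken as 1 value (limma, 2 lines against 2), 0 genes passed, 865 had an unadjusted p under 0.05, and the smallest adjusted p was 0.22. The median difference over all genes was 0.01.

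The classes were not tight groups. H187 and H209 differed from each other by a median of 0.59 on the log2 scale across genes, with 26.5% of genes at least 2-fold apart. H82 and SHP-77, both ISL1-low, differed by 0.68 with 33.5% of genes at least 2-fold apart. H209 was closer than that to SHP-77 (0.62 and 29.6%), while H187 and H209 each stood 0.73 from H82 (37.7% and 37.4%). Among the 338 genes higher by at least 2-fold, SHP-77 was the low line nearer to the high lines for 208, and among the 282 lower genes for 151.

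**Figure D1:**
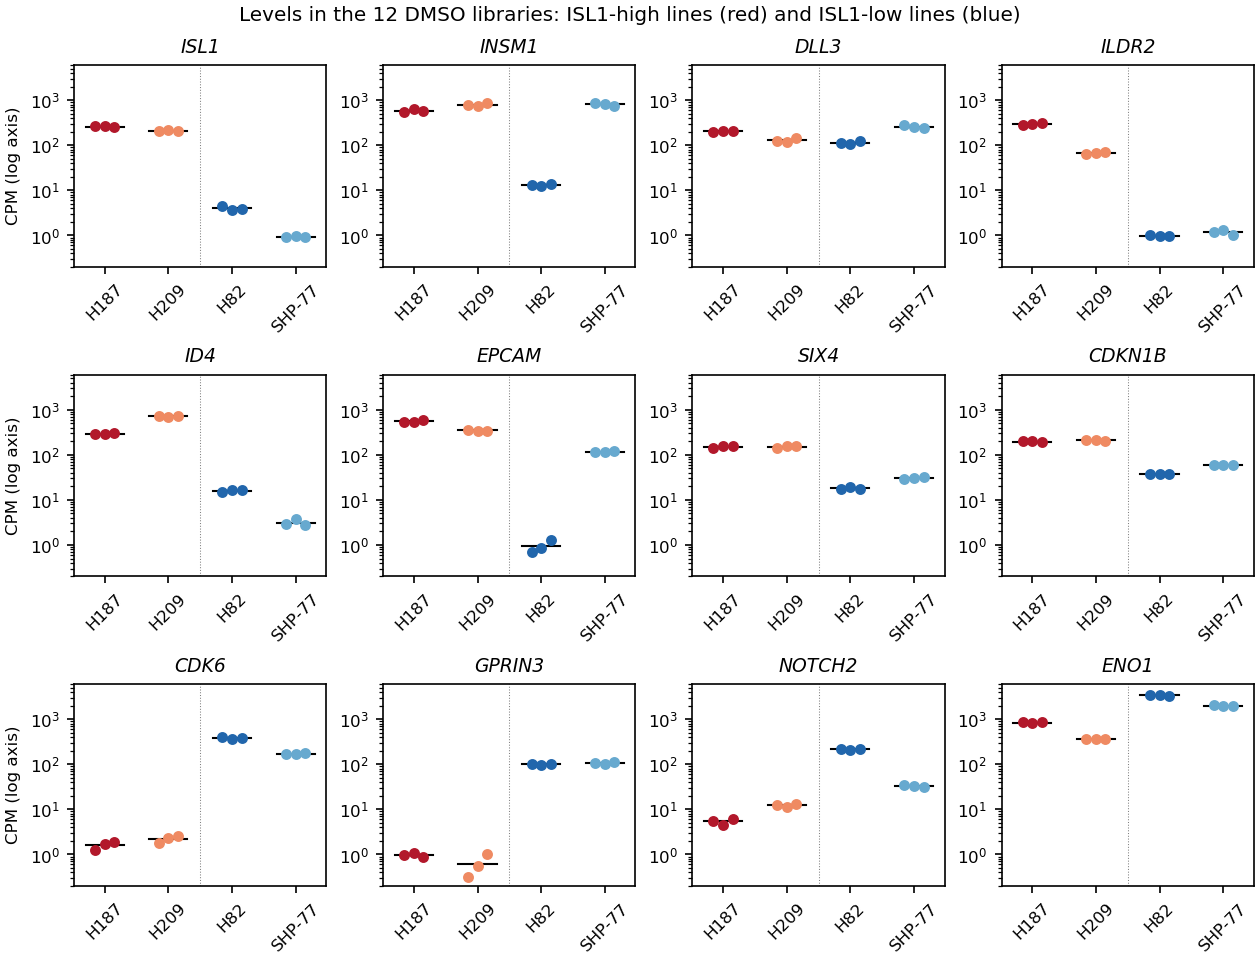
CPM of 12 genes (log axis) in each of the 12 DMSO libraries, with 3 points per line and a bar at the line mean, ISL1-high lines in red and ISL1-low lines in blue. ISL1, ILDR2, ID4, EPCAM, SIX4 and CDKN1B lie above in both high lines and CDK6, GPRIN3, NOTCH2 and ENO1 below, whereas INSM1 is low in H82 only and DLL3 has no common order.

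The lineage factors did not follow the ISL1 classes. INSM1 stood at 556, 626 and 573 CPM in the H187 libraries and at 797, 751 and 873 in H209, against 13.0, 12.6 and 14.1 in H82 and 876, 827 and 733 in SHP-77, with H82 apart and SHP-77 close to H209. Its class difference of 2.73 rested on H82 alone. DLL3, a Notch ligand that acts within the cell as an inhibitor, stood at 205 and 130.2 CPM in H187 and H209 against 114 and 261 in H82 and SHP-77. MYCL, a MYC family oncogene, was high in 1 line, at 734, 721 and 729 CPM in H209 against 50.8 in H187, 55.9 in H82 and 17.1 in SHP-77. None of these 3 genes had the same sign in all 4 pairs.

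YAP1 was listed for H187 only (1.64 ± 0.277 CPM). NEUROD1, listed for 3 lines, stood at 268 ± 9.94 CPM in H82, 13.3 ± 0.50 in H209 and 0.798 ± 0.199 in H187 (mean ± SD, n = 3). NKX2-1, a lung lineage factor, was listed for H187 (455 ± 31.2), H209 (130.4 ± 4.00) and SHP-77 (118 ± 6.06). H82 thus had the most NEUROD1 and the least INSM1, while SHP-77 had INSM1 and NKX2-1. REST, a repressor of neuronal genes, stood at 8.17 ± 0.127 CPM in H82, 1.39 ± 0.427 in H209 and 0.836 ± 0.106 in SHP-77. Of the 15 lineage factors tested, 2 were higher (FOXA1 at 1.46 ± 0.03 and SOX4 at 1.14 ± 0.03) and 1 lower (RUNX1T1 at -0.73 ± 0.03, SE). Each of the 3 was under 2-fold in at least 1 pair.

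Neuroendocrine granule and hormone genes also did not separate by class. Of 28 tested, 4 were higher, 1 was lower and 0 were 2-fold apart in every pair, with a median of 0.10. Those higher were RIMBP2, a protein of the synaptic active zone (1.70 ± 0.04), ENO2 or neuron-specific enolase (1.31 ± 0.03), UCHL1, a neuronal deubiquitinase (0.85 ± 0.03), and PCSK1N, an inhibitor of prohormone convertase (1.78 ± 0.06). CHGB, a granin of secretory granules, was the lower one at -1.13 ± 0.04, from 29.3 and 43.1 CPM in H187 and H209 against 44.0 and 138 in H82 and SHP-77. SCG2, another granin, was listed for 3 lines, at 1093 ± 31.1 CPM in SHP-77, 216 ± 7.06 in H209 and 20.5 ± 0.585 in H187.

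LIM homeodomain genes and their partners showed no common direction. Of 11 tested, ISL1 and LMO4 were higher and LMO3 and SSBP4 lower, with a median of -0.34. A further 1 was listed for both high lines only and 0 for both low lines only. LDB1, the adaptor that bridges LIM factors, stood at 63.5 and 83.3 CPM in H187 and H209 against 83.2 and 62.1 in H82 and SHP-77, a difference of 0.02 ± 0.03 (adjusted p = 0.65, edgeR). LMO4, a LIM-only protein that binds LDB1, differed by 0.43 ± 0.04. LMO3, another LIM-only protein, differed by -0.64 ± 0.10, and SSBP4, of a family that stabilises LDB1, by -1.29 ± 0.04. SSBP4 stood at 47.4 and 26.4 CPM in H187 and H209 against 146 and 50.9 in H82 and SHP-77. Its smallest pair difference, between H187 and SHP-77, was -0.10. LMO3 in H209 and H82 lay at 4.08 and 4.06 CPM, and its call was lost without H209 replicate 2 or H82 replicate 1. Motor neuron and autonomic genes were mixed, with 2 higher and 2 lower of 9 tested. Of 30 listed for at least 1 line, 2 were listed for both high lines only and 0 for both low lines only. Over all genes these listings held 419 and 217. MNX1, a homeodomain factor of motor neurons, was higher at 26.1 and 21.6 CPM in H187 and H209 against 0.484 and 8.15 in H82 and SHP-77. CHRNA3, a nicotinic receptor subunit of autonomic ganglia, was lower by at least 2-fold in every pair, at 0.448 and 4.46 CPM in H187 and H209 against 28.7 and 30.3 in H82 and SHP-77. NEFH, the heavy neurofilament subunit, was called lower too (-2.64 ± 0.06). It stood at 3.06 and 9.51 CPM in H187 and H209 against 95.9 and 11.7 in H82 and SHP-77. Its smallest pair difference, between H209 and SHP-77, was only -0.30. POU4F1, a sensory neuron factor, met the sign rule by a margin of 0.02 between H209 and SHP-77, and the call was lost without SHP-77 replicate 3.

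The largest differences toward the ISL1-high lines, after the rule for named genes, were in ILDR2, ISL1, TFCP2L1, ID4, AP1M2, SHANK2, LOC728392, BTBD11, EPCAM, TESC, MDGA1 and ST8SIA5. ILDR2 (hg38 chromosome 1, 166913204 to 166975324), an immunoglobulin-like membrane protein, stood at 287, 303 and 309.9 CPM in the H187 libraries and at 65.4, 67.5 and 71.0 in H209, against 1.04, 0.992 and 0.962 in H82 and 1.18, 1.30 and 1.01 in SHP-77. Its class difference was 7.04 ± 0.06 (SE, adjusted p = 8.2e-36, edgeR), and its levels in the 6 low-line libraries lay between 0.962 and 1.30 CPM. ID4, which binds basic helix-loop-helix partners and keeps them from DNA, stood at 287, 290.4 and 308 CPM in the H187 libraries and at 728, 706 and 723 in H209, against 14.8, 16.4 and 16.6 in H82 and 2.90, 3.68 and 2.81 in SHP-77. Its difference was 6.03 ± 0.04 (adjusted p = 4.3e-37, edgeR), with H209 above H187 and H82 above SHP-77. TFCP2L1, a grainyhead-like transcription factor of epithelia and pluripotent cells, differed by 6.33 ± 0.07, from 282 and 47.3 CPM in H187 and H209 against 3.90 and 0.519 in H82 and SHP-77.

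EPCAM is described with the epithelial genes, and the other 7 genes of that set differed by 4.80 to 5.96. AP1M2, the adaptor subunit for sorting to the basolateral membrane of epithelial cells, stood at 37.6 and 57.6 CPM in H187 and H209 against 0.502 and 1.10 in H82 and SHP-77. SHANK2, a scaffold of the excitatory synapse, stood at 122 and 108 CPM in H187 and H209 against 6.94 and 0.507 in H82 and SHP-77. BTBD11 stood at 119 and 63.3 CPM in H187 and H209 against 2.15 and 1.88 in H82 and SHP-77, and TESC, a calcium-binding protein, differed by 5.32 ± 0.06. MDGA1, a cell surface protein that binds neuroligins, stood at 30.7 and 119 CPM in H187 and H209 against 5.30 and 0.808 in H82 and SHP-77. ST8SIA5, a sialyltransferase of ganglioside synthesis, stood at 5.06 and 50.4 CPM in H187 and H209 against 0.504 and 0.638 in H82 and SHP-77, so H187 was far nearer to the low lines than H209 was. LOC728392 stood at 159.5 and 442 CPM in H187 and H209 against 2.20 and 16.9 in H82 and SHP-77. That both high lines lay above both low lines in each of these genes follows from the rule that chose them.

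The largest differences toward the ISL1-low lines were in CDK6, GPRIN3, SLC7A2, TENM1, PTPN21, ZNF804A, CHRNA1, TRHDE, ESRRG, TSPAN11, CTSC and UGT3A1. CDK6 (hg38 chromosome 7, 92604921 to 92836627), the cyclin D-dependent kinase that phosphorylates RB1, stood at 1.27, 1.69 and 1.90 CPM in the H187 libraries and at 1.79, 2.34 and 2.60 in H209, against 396, 374 and 386 in H82 and 169, 171 and 177 in SHP-77. Its difference was -7.07 ± 0.05 (SE, adjusted p = 2.6e-36, edgeR), and the classes were at least 6.24 apart in every line pair. GPRIN3 (hg38 chromosome 4, 89244278 to 89308010), a regulator of G-protein signalling in neurons, stood at 0.978, 1.09 and 0.896 CPM in the H187 libraries and at 0.311, 0.544 and 1.00 in H209, against 100.4, 97.7 and 101 in H82 and 105, 104 and 111 in SHP-77. It differed by -7.04 ± 0.07, with the 2 low lines at nearly the same level. SLC7A2, a transporter of arginine and lysine, stood at 4.39 and 18.2 CPM in H187 and H209 against 321 and 994 in H82 and SHP-77, a difference of -5.98 ± 0.04.

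The other 9 differed by -5.96 to -4.62. TENM1, a teneurin of neuronal adhesion, stood at 4.18 and 0.781 CPM in H187 and H209 against 62.5 and 202 in H82 and SHP-77. PTPN21, a cytosolic tyrosine phosphatase, stood at 0.650 and 0.572 CPM in H187 and H209 against 55.6 and 23.1 in H82 and SHP-77, and ZNF804A, a zinc finger gene of neurons, at 0.724 and 1.88 CPM in H187 and H209 against 59.9 and 40.3 in H82 and SHP-77. CHRNA1, the muscle-type nicotinic receptor subunit, stood at 0.883 and 2.49 CPM in H187 and H209 against 120.0 and 22.0 in H82 and SHP-77. TRHDE, the enzyme that degrades thyrotropin-releasing hormone, stood at 1.20 and 1.46 CPM in H187 and H209 against 70.6 and 27.3 in H82 and SHP-77. ESRRG, an orphan nuclear receptor, stood at 0.851 and 9.67 CPM in H187 and H209 against 166 and 49.5 in H82 and SHP-77. TSPAN11 stood at 1.60 and 8.56 CPM in H187 and H209 against 62.2 and 191 in H82 and SHP-77, CTSC, a lysosomal protease, at 1.59 and 20.8 CPM in H187 and H209 against 182 and 120.4 in H82 and SHP-77, and UGT3A1, a sugar transferase, at 6.06 and 0.497 CPM in H187 and H209 against 81.0 and 22.2 in H82 and SHP-77. The high lines differed from each other most in ESRRG, UGT3A1 and CTSC.

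Epithelial genes were higher in the ISL1-high lines, and many were listed for those lines only. Of 30 epithelial genes in any table, 29 were listed for H209, 25 for H187, 16 for SHP-77 and 8 for H82. Over all genes these lines listed 14421, 14023, 14190 and 13516. Of the 6 epithelial genes tested in all 4 lines, 5 were higher and 0 lower (median 3.42), beside 19.6% and 19.4% of all genes. At least 2-fold apart in every pair were 4 of the 6. EPCAM, an epithelial adhesion molecule (hg38 chromosome 2, 47369148 to 47387028), stood at 541, 547 and 583 CPM in the H187 libraries and at 360.3, 346 and 344 in H209, against 0.701, 0.850 and 1.32 in H82 and 115, 113 and 119 in SHP-77. H82 lay near 1 CPM and SHP-77 between H82 and the high lines. The class difference was 5.40 ± 0.05, and the smallest pair difference, between H209 and SHP-77, was 1.59. CLDN3, a tight junction protein (3.83 ± 0.05), DSP, the desmoplakin of desmosomes (3.19 ± 0.03), and GRHL1, a grainyhead factor of epithelia (1.85 ± 0.06), were the others. SPINT1, an inhibitor of matriptase, was called at 3.65 ± 0.05 but under 2-fold in 1 pair. JUP, plakoglobin, was highest in SHP-77 and was not called.

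A further 10 epithelial genes were listed for both high lines and for neither low line, and 0 for the low lines only. Over all genes the same listings held 419 and 217, out of 16796 listed for at least 1 line or comparison. CDH1, E-cadherin, stood under DMSO at 106, 103 and 109.5 CPM across the H187 libraries and at 379.7, 389.8 and 386 across H209. ESRP1, a splicing factor of epithelial isoforms, stood at 243, 235 and 235 CPM and at 352, 359 and 346. KRT19, a keratin, averaged 51.9 ± 0.956 CPM in H187 and 153 ± 6.17 in H209. For low lines these genes can be read only in the lurbinectedin libraries, through the table that compares the classes. There CDH1 had at most 1 count in any H82 library and 0 in each SHP-77 library, against means of 109.6 and 356 CPM in H187 and H209. ESRP2, OVOL2, CRB3, CDH3, MARVELD3, EHF and GRHL2 completed the 10. GRHL2 and EHF were far higher in H209 than in H187, at 66.9 and 82.4 CPM against 0.604 and 1.51 in H187.

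ZEB1, a repressor that binds epithelial genes at CACCTG sites, ran the other way. It stood at 20.2, 23.8 and 24.4 CPM in the H187 libraries and at 13.2, 13.9 and 12.5 in H209, against 55.1, 53.2 and 55.1 in H82 and 66.5, 68.8 and 66.8 in SHP-77. Both low lines lay above both high lines by at least 2-fold (difference -1.80 ± 0.04, adjusted p = 2.7e-25, edgeR). Its relative ZEB2 was also lower (-3.44 ± 0.08), but under 2-fold in at least 1 pair. Of 15 mesenchymal and non-neuroendocrine genes tested, 1 was higher (AHNAK) and 4 lower, with a median of 0.08. AHNAK read 0.540, 0.683 and 4.54 CPM in the SHP-77 libraries and 4.32, 4.26 and 5.32 in H209, so libraries of the classes overlapped. TIMP1, an inhibitor of matrix proteases, was lower at 0.584 and 1.84 CPM in H187 and H209 against 11.8 and 11.6 in H82 and SHP-77. LGALS1, galectin-1, was called lower, but the low lines differed widely, with 64.5 CPM in SHP-77 and 1.23 in H82. VIM, the mesenchymal filament, was listed for H82 (2.99 ± 0.202 CPM) and H209 (0.771 ± 0.0797), and CDH2, N-cadherin, for all 4 lines without a common sign.

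Out of 14 epithelial genes with an upstream window, 3 that were higher in, or listed only for, the high lines were picked by no set rule. The upstream windows of these 3 genes show where the ZEB1 motif does and does not occur. They are the 250 bases before the gene start that the RefSeq table gives on GRCh38.p14, 5′ to 3′ on the gene's strand, with every CACCTG on either strand in capitals (on the minus strand it reads CAGGTG). The deposited tables start DSP at 7541575 and CRB3 at 6463777, so by their gene models part of the DSP window and all of the CRB3 window lie within the gene.
DSP, chr6:7541421-7541670, plus strand: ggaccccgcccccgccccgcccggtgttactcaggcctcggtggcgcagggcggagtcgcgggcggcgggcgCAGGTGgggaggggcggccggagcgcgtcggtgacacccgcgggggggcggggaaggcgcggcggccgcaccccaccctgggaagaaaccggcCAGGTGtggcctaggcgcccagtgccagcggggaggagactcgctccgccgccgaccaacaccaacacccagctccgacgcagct
CRB3, chr19:6464021-6464270, plus strand: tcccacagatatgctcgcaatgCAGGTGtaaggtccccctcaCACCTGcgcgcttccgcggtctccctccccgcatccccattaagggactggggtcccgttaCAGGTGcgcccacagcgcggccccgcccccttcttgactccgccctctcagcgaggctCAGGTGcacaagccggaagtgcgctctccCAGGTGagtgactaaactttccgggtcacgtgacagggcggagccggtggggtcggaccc
CLDN3, chr7:73770271-73770520, minus strand: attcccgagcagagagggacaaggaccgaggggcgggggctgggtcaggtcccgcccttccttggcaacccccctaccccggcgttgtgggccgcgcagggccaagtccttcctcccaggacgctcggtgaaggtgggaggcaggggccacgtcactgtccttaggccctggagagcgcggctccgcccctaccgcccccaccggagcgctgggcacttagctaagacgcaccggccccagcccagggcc
The DSP window held 2 matches, the CRB3 window 5 and the CLDN3 window 0. CACCTG occurred in 17.5% of the 27305 windows of this length in the table and in 15% of the 9079 windows matched to a tested gene. Of the 30 epithelial genes only 14 had a window, 5 of them with a match, so a comparison of the list with other genes is void. A match is a stretch of letters and not a shown binding site, and any role of ZEB1 in these levels was not tested.

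**Figure D2:**
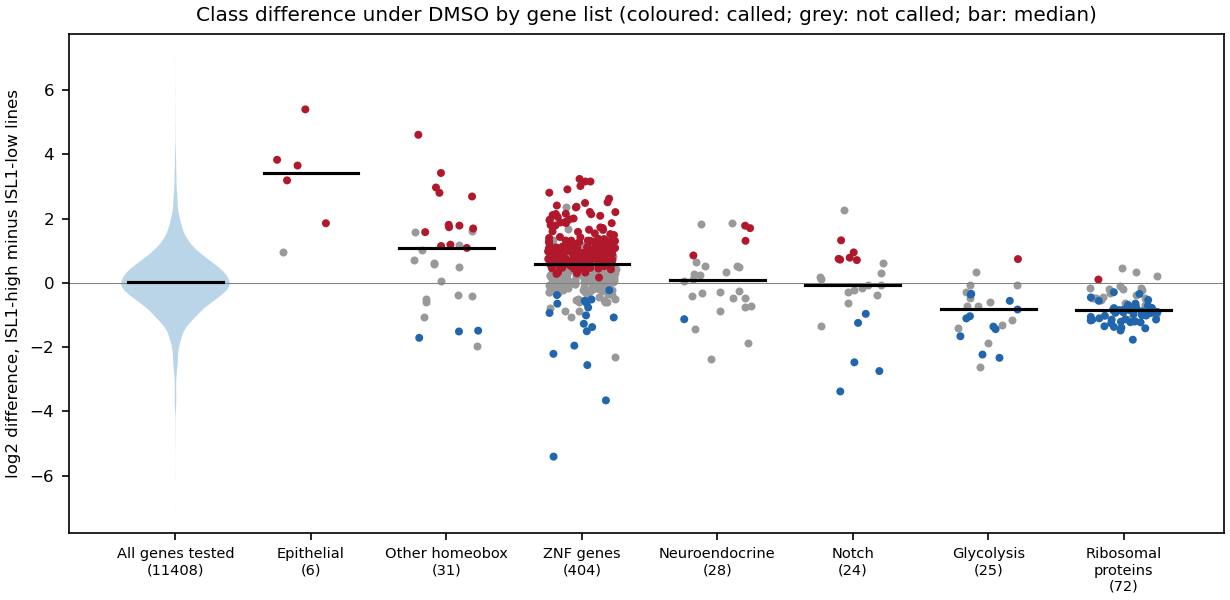
Class difference on the log2 scale for all genes tested (shaded shape) and for the tested members of 7 gene lists (points), with the median as a bar, called genes in red or blue and uncalled genes in grey. The epithelial, homeobox and ZNF medians lie above 0, the glycolysis and ribosomal protein medians near -0.83 and -0.85, and the neuroendocrine and Notch medians near 0.

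Homeobox genes other than the LIM class were more often higher in the ISL1-high lines. Of 31 tested, 13 were higher and 3 lower (median 1.09), beside 19.6% and 19.4% of all genes. By at least 2-fold in every pair, 7 were higher and 0 lower, beside 2.96% and 2.47%. SIX4 (hg38 chromosome 14, 60709538 to 60724134), a homeodomain factor of muscle and sensory precursors, stood at 141, 153 and 158 CPM in the H187 libraries and at 145, 155 and 155 in H209, against 17.8, 18.9 and 17.7 in H82 and 29.2, 30.7 and 31.6 in SHP-77. Its difference was 2.69 ± 0.04 (adjusted p = 2.6e-30, edgeR). LBX1, of muscle and dorsal horn precursors, stood at 12.4 and 3.49 CPM in H187 and H209 against 0.447 and 0.848 in H82 and SHP-77. DLX6 and DLX5, neighbours on chromosome 7 that act in limb, ear and interneurons, differed by 1.73 ± 0.05 and 2.80 ± 0.07. CUX1 (1.58 ± 0.03) and VAX2 (1.80 ± 0.11) were also past 2-fold, and MEIS1, PITX1 and SIX5 were the lower ones.

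Of the homeobox genes, 10 were listed for both high lines only and 1 (MEIS3) for both low lines only, beside 419 and 217 over all genes. Each of the 10 homeobox genes stood under 5 CPM in at least 1 of the high lines. HMX3 stood at 23.1 CPM in H209 and 1.35 in H187, and MSX2 at 44.1 in H187 and 1.27 in H209. SOX1, a neural progenitor factor of another family, had the same listing, at 192, 198 and 198 CPM across the H187 libraries and 401, 394 and 403 across H209. SOX13, a relative, was tested in all 4 lines and higher at 167 and 93.5 CPM in H187 and H209 against 6.19 and 38.1 in H82 and SHP-77. In the lurbinectedin libraries SOX1 had 0 counts in each H82 library and at most 1 count in any SHP-77 library.

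Genes listed for both high lines and neither low line numbered 419, of which 315 are protein-coding and 47 stood at 10 CPM or more in both. The reverse set held 217 genes, with 168 protein-coding and 14 at that level. A line's listing covers its DMSO and lurbinectedin libraries together, so treated counts of such genes are no separate test of the class gap. The genes named from both sets were picked after their levels were seen, from those with the highest level in their lower line. On the high side these were ESRP1, SOX1, CDH1, TMEM30B, KCNA1, STOX2, SLFN11, H2AFY2, NRXN3, PRR15L, KRT19 and PCDHGB5. KCNA1, a voltage-gated potassium channel, averaged 90.3 ± 5.02 CPM in H187 and 299 ± 5.30 in H209. On the low side were SERPINF1, MYC, CALD1, QPRT, NUDT11, MCC, CPNE8, ECEL1, TUBB4A, MEIS3, FHL2 and FAM78B. SERPINF1, a secreted neurotrophic serpin, stood at 371 ± 16.8 CPM in H82 and 91.6 ± 2.94 in SHP-77. CALD1, caldesmon, an actin-binding protein, stood at 67.4 ± 2.20 and 87.6 ± 2.94.

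SLFN11, which blocks stalled replication forks and is known for its link with response to DNA-damaging drugs, was listed for the high lines only. Under DMSO it read 65.3, 67.8 and 70.0 CPM across the H187 libraries and 153, 154 and 142 across H209. In the lurbinectedin libraries it had 0 counts in all 6 libraries of H82 and SHP-77, which allows up to 0.0895 to 0.113 CPM per library (3 counts, counting error only). Its relatives SLFN5 (36.4 and 36.8 CPM in H187 and H209) and SLFN13 (2.50 and 35.5) had the same listing. The replication stress genes listed with it were mixed, with 4 higher and 4 lower of 18 tested. WEE1, a kinase that restrains entry into mitosis, was higher (1.19 ± 0.04), as was TDP1, which clears stalled topoisomerase I (0.56 ± 0.03). CHEK2 (-1.25 ± 0.04) and TIPIN (-0.89 ± 0.05) were lower.

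**Figure D3:**
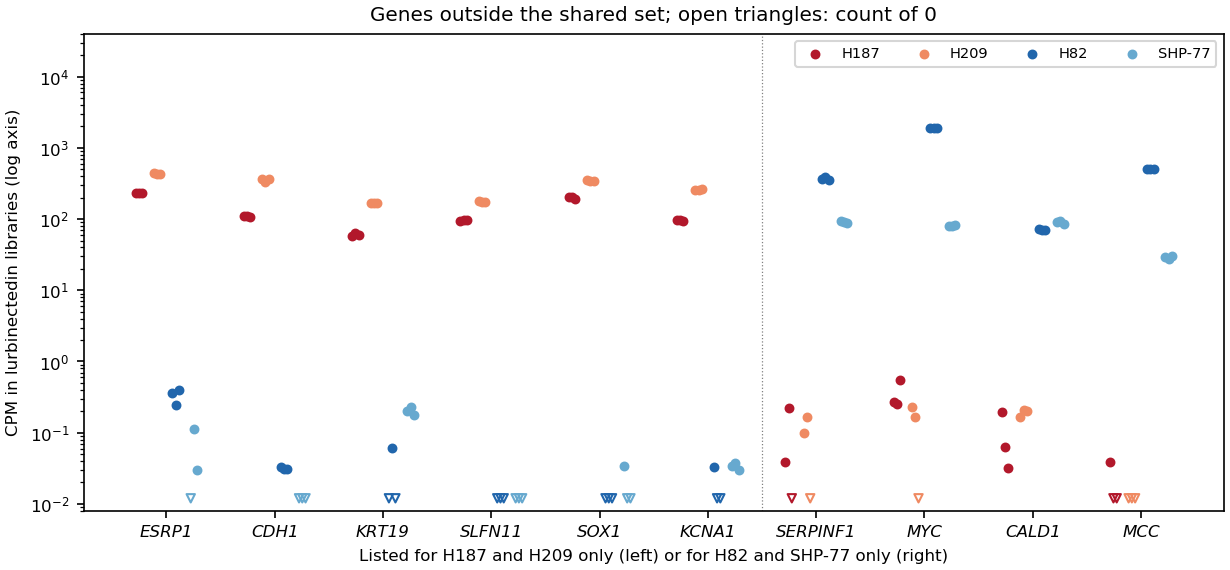
CPM (log axis) of 10 genes in the 12 lurbinectedin libraries, with 3 points per line and open triangles for a count of 0. Of the genes, 6 were listed for H187 and H209 only and 4 for H82 and SHP-77 only. Each gene lies well apart between the classes, and SLFN11 has a count of 0 in all 6 libraries of H82 and SHP-77. A line's listing covers its DMSO and lurbinectedin libraries together, so this gap is tied to the choice of genes and is no test.

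Interferon-stimulated genes separated H82 from the rest more than they separated the classes. Of 29 in any table, H82 listed 9, against 24 for H187, 26 for H209 and 25 for SHP-77. Over all genes H82 listed 13516, against 14023 for H187, 14421 for H209 and 14190 for SHP-77. Of the 29, 4 were listed for both high lines and neither low line, and 0 for both low lines only. Over all genes the same listings held 419 and 217. Of 9 interferon-stimulated genes tested, 1 was higher and 1 lower. The higher one was STAT2, an interferon signal carrier, at 0.69 ± 0.04. STAT2 lost its call without H209 replicate 1. Of 12 antigen presentation genes, 3 were higher and 3 lower.

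CDK6 was lower in the ISL1-high lines, and 4 genes for inhibitors of cyclin-dependent kinases, singled out after their values were seen, were higher. Of 13 RB, CDK and cyclin D genes tested, 6 were higher and 3 lower, beside 19.6% and 19.4% of all genes, and 4 were not called. By at least 2-fold in every pair, 2 were higher and 1 lower. CDKN1B, the inhibitor p27, stood at 201, 201 and 191 CPM in the H187 libraries and at 218, 211 and 207 in H209, against 38.3, 38.6 and 38.3 in H82 and 59.3, 59.6 and 60.8 in SHP-77. Its difference was 2.09 ± 0.03 (adjusted p = 1.3e-30, edgeR), at least 1.72 in every pair. CDKN2B, the CDK4 and CDK6 inhibitor p15, stood at 86.7 and 14.3 CPM in H187 and H209 against 3.85 and 6.46 in H82 and SHP-77 (2.82 ± 0.05). CDKN2C (2.22 ± 0.03) and CDKN2D (2.14 ± 0.06), of the same INK4 family, were higher, and under 2-fold in at least 1 pair. CDK4 differed by 0.36 ± 0.03, and E2F4, a repressive partner of the pocket proteins, by -0.64 ± 0.05.

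MYC itself was listed for the low lines only. It read 2037, 1935 and 2015 CPM in H82 and 79.2, 87.6 and 86.7 in SHP-77 under DMSO. In the lurbinectedin libraries it averaged 0.359 CPM in H187 and 0.132 in H209. The low lines were thus far apart in MYC. MYCN was listed for H187 (79.7 ± 2.94) and H82 (4.32 ± 0.315). Of 10 genes of the MAX network tested, 5 were higher and 0 lower, beside 19.6% and 19.4% of all genes. The higher ones included MXD1 (1.42 ± 0.03), MXD3 (1.82 ± 0.06) and MXD4 (0.97 ± 0.03), which pair with MAX and repress. MLXIP, a glucose-responsive relative, was also higher (1.46 ± 0.03).

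Replication and mitosis genes differed by small amounts. Over all genes tested, 19.6% were higher and 19.4% lower. Of 42 DNA replication and E2F genes, 4 were higher and 13 lower (median -0.31), and only PRIM1, a primase subunit, was 2-fold apart in every pair (-1.21 ± 0.04). Of 40 G2/M and mitosis genes, 15 were higher and 4 lower (median 0.20), with PTTG1, or securin, at 1.06 ± 0.03 and FOXM1, a mitotic transcription factor, at 1.00 ± 0.03. The replication median was -0.54 for H187 and -0.45 for H209 against H82. Against SHP-77 it was 0.10 for H187 and -0.145 for H209.

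Genes for ribosomes and glycolysis were more often lower in the ISL1-high lines. Over all genes tested, 19.4% were lower and 19.6% higher. Of 72 cytosolic ribosomal proteins tested, 47 were lower and 1 higher (median -0.85), with 3 lower by at least 2-fold in every pair. RPS3 stood at 579 and 649.8 CPM in H187 and H209 against 1542 and 1344 in H82 and SHP-77 (-1.23 ± 0.03), RPL26 at 203 and 286 CPM in H187 and H209 against 1112 and 608 in H82 and SHP-77 (-1.77 ± 0.03), and RPL29 differed by -1.37 ± 0.04. These genes took 2.44% to 2.64% of the counts in the libraries of H187 and H209, 3.25% to 3.28% in SHP-77 and 5.26% to 5.58% in H82. The median was -1.36 for H187 against H82 and -0.36 for H187 against SHP-77, and the high lines did not overlap either low line in that share. RPSA, the laminin receptor protein of the small ribosomal subunit, falls outside the list by its symbol and was lower by at least 2-fold as well (-1.44 ± 0.04).

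Of 25 glycolysis and hypoxia genes tested, 11 were lower and 1 higher (median -0.83), beside 19.4% and 19.6% of all genes. ENO1, a glycolytic enolase, stood at 858, 830.2 and 855 CPM in the H187 libraries and at 370.1, 362 and 360.0 in H209, against 3429, 3442 and 3263 in H82 and 2055, 1997 and 2003 in SHP-77. Its difference was -2.23 ± 0.03 (adjusted p = 1.5e-30, edgeR). NDRG1, a stress- and hypoxia-responsive gene, stood at 25.3 and 28.3 CPM in H187 and H209 against 93.8 and 194 in H82 and SHP-77 (-2.33 ± 0.04). PGAM1 (-1.44 ± 0.03), ALDOC (-1.66 ± 0.06), PGK1 (-1.11 ± 0.03) and ALDOA (-1.04 ± 0.03), enzymes of the same pathway, were lower but under 2-fold in at least 1 pair, and GAPDH was not called (0.33 ± 0.03). Of 77 nuclear-encoded oxidative phosphorylation genes, 10 were higher and 23 lower (median -0.145), and 0 passed 2-fold in every pair. SREBF1, which drives lipid synthesis, was lower at 20.2 and 17.3 CPM in H187 and H209 against 63.9 and 84.6 in H82 and SHP-77, while the 28 cholesterol synthesis genes tested were 3 higher and 2 lower.

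Ranked by mean CPM, which also follows transcript length, the 6 foremost higher genes past 2-fold were MALAT1, NUCKS1, MTURN, COTL1, DDX6 and AZIN1. MALAT1, a nuclear long non-coding RNA, stood at 6753 and 3955 CPM in H187 and H209 against 1187 and 1877 in H82 and SHP-77, with 5859, 6487 and 7911 in the 3 H187 libraries. NUCKS1, a chromatin-bound phosphoprotein, stood at 2433 and 1616 CPM in H187 and H209 against 584 and 596 in H82 and SHP-77. COTL1, an actin-binding protein, stood at 972 and 873 CPM in H187 and H209 against 336 and 87.5 in H82 and SHP-77, and DDX6, an RNA helicase of processing bodies, at 707 and 659 CPM in H187 and H209 against 281 and 324 in H82 and SHP-77. The 6 foremost lower genes were ENO1, RPS3, HSPD1, RPSA, LRRC75A-AS1 and RPL26. HSPD1, the mitochondrial chaperonin, stood at 408 and 440.4 CPM in H187 and H209 against 1866 and 1032 in H82 and SHP-77 (-1.71 ± 0.03). LRRC75A-AS1, a snoRNA host transcript, stood at 368 and 364 CPM in H187 and H209 against 1208 and 1113 in H82 and SHP-77. Whether the counting used strand is not given in the sources used here, so reads of an antisense gene and its partner may be mixed.

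**Figure D4:**
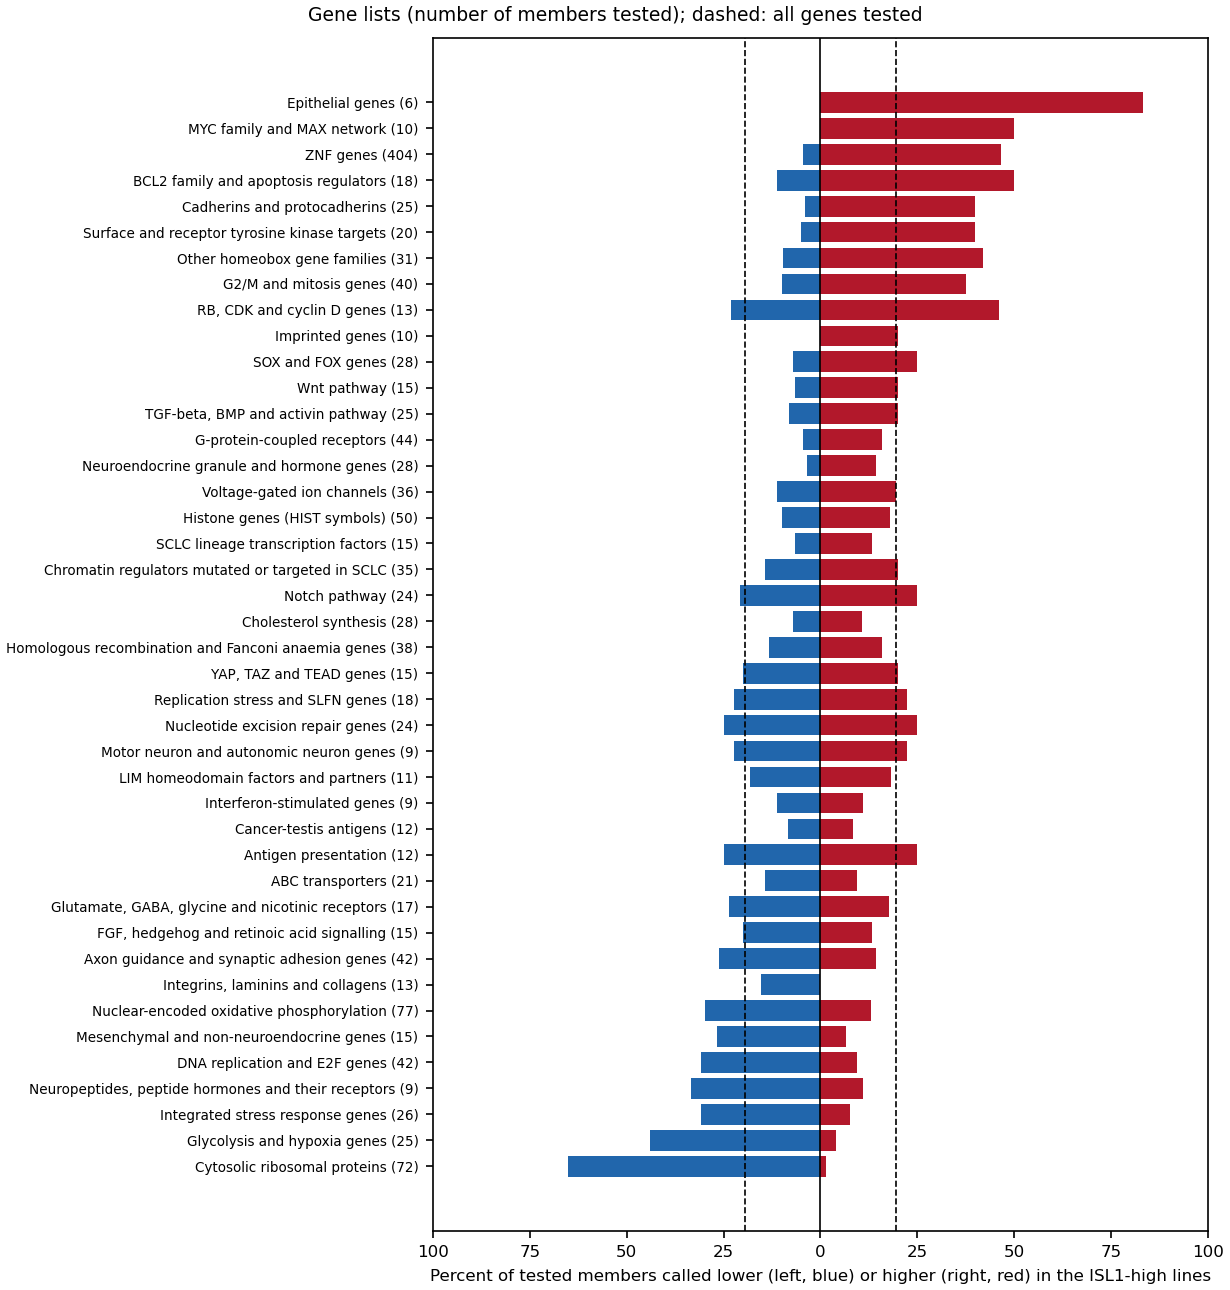
Percent of the tested members of each gene list called lower (blue, left) or higher (red, right) in the ISL1-high lines, for lists with at least 6 tested members, with the number tested in brackets and dashed lines at 19.4% and 19.6% for all genes tested. Of the lists shown, ribosomal proteins and glycolysis genes reach furthest to the left, and epithelial genes (6 tested) furthest to the right.

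Notch pathway genes showed no common direction. Of 24 tested, 6 were higher and 5 lower, beside 19.6% and 19.4% of all genes, with a median of -0.07, and the 3 past 2-fold in every pair were all lower. NOTCH2, a receptor, stood at 5.43, 4.6 and 6.17 CPM in the H187 libraries and at 12.5, 11.4 and 13.0 in H209, against 216, 213 and 223 in H82 and 34.6, 33.2 and 31.8 in SHP-77. H82 was highest and H187 lowest (difference -3.38 ± 0.05, adjusted p = 2e-30, edgeR). HEY2 and NRARP, transcriptional targets of Notch, were both lower. HEY2 stood at 0.892 and 2.47 CPM in H187 and H209 against 7.86 and 12.6 in H82 and SHP-77, and NRARP at 2.39 and 11.4 CPM in H187 and H209 against 25.5 and 33.2 in H82 and SHP-77. NUMBL, which restrains Notch (-1.25 ± 0.04), and MAML3, a coactivator (-0.97 ± 0.04), were the other lower genes. JAG2, a ligand, was higher (0.95 ± 0.04), as were RBPJ, the DNA-binding partner (0.78 ± 0.03), and LFNG, a glycosyltransferase that modifies the receptors (1.32 ± 0.04).

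Neuronal adhesion and channel genes were found on both sides. All lists of this paragraph stand beside 19.6% higher and 19.4% lower over all genes. Of 42 axon guidance and synaptic adhesion genes tested, 6 were higher and 11 lower, with 3 and 6 past 2-fold in every pair. PLXNA2, a semaphorin receptor, stood at 275 and 167 CPM in H187 and H209 against 7.05 and 54.9 in H82 and SHP-77. DSCAML1, a neuronal adhesion molecule, was higher past 2-fold as well (2.71 ± 0.09). EPHA4, an ephrin receptor, stood at 5.43 and 5.33 CPM in H187 and H209 against 15.5 and 194 in H82 and SHP-77, LRRTM2, a postsynaptic adhesion protein, at 4.85 and 6.23 CPM in H187 and H209 against 18.9 and 78.5 in H82 and SHP-77, and ROBO1, a receptor for SLIT guidance cues, at 102 and 124 CPM in H187 and H209 against 265 and 711 in H82 and SHP-77. Of 36 ion channel genes, 7 were higher and 4 lower. KCNMB4, a subunit of the large-conductance potassium channel, was higher at 22.6 and 18.4 CPM in H187 and H209 against 0.540 and 2.92 in H82 and SHP-77, and CACNA2D1, a calcium channel subunit, lower at 60.2 and 75.1 CPM in H187 and H209 against 267 and 233 in H82 and SHP-77. KCNJ11, the potassium channel of insulin secretion, was higher at 33.7 and 31.6 CPM in H187 and H209 against 10.3 and 8.31 in H82 and SHP-77. Of 17 transmitter receptor genes, 3 were higher and 4 lower, and the 3 past 2-fold in every pair (CHRNA1, CHRNA3 and GRIN2D) were all lower. Of 25 cadherins and protocadherins, 10 were higher and 1 lower (median 1.24), with PCDH8 at 3.94 ± 0.08, CDH24 at 2.20 ± 0.04 and PCDH9, the lower one, at -2.63 ± 0.05. Clustered protocadherins share exons, which limits how their reads can be assigned.

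Apoptosis genes were more often higher. Of 18 BCL2 family and apoptosis regulators tested, 9 were higher and 2 lower (median 0.60), beside 19.6% and 19.4% of all genes. BMF, a BH3-only protein that promotes death, stood at 267 and 108 CPM in H187 and H209 against 6.4 and 46.6 in H82 and SHP-77 (3.30 ± 0.04), and was the 1 member past 2-fold in every pair. BCL2L1, which blocks death, was higher by 1.04 ± 0.03, and BAD, which antagonises it, by 0.99 ± 0.05. BCL2 was called at 3.87 ± 0.05, but 150.2 CPM in SHP-77 was close to 169 and 159.6 in the high lines, and H82 stood at 0.827. BBC3, another BH3-only gene, differed by -0.81 ± 0.13 under DMSO, at line means of 2.45 to 5.67 CPM.

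Among genes for surface proteins and receptor kinases, 8 of 20 tested were higher and 1 was lower, beside 19.6% and 19.4% of all genes. SEZ6L, a neuronal surface protein, stood at 79.2 and 69.0 CPM in H187 and H209 against 17.7 and 31.9 in H82 and SHP-77, and CD47, which signals against engulfment, at 189 and 185 CPM in H187 and H209 against 107 and 79.8 in H82 and SHP-77. CXCR4, the CXCL12 receptor, was called higher at 36.5 and 63.0 CPM in H187 and H209 against 1.71 and 31.7 in H82 and SHP-77. In the transforming growth factor-beta group, 5 of 25 were higher and 2 lower, so 28% were called, beside 39% of all genes. SMAD6, an inhibitor of bone morphogenetic protein signalling, stood at 14.9 and 20.6 CPM in H187 and H209 against 6.42 and 1.12 in H82 and SHP-77, and GDF11, a ligand, at 122 and 91.3 CPM in H187 and H209 against 30.9 and 19.4 in H82 and SHP-77. INHBE, the activin E subunit and a stress-response gene, was lower at 3.58 and 5.72 CPM in H187 and H209 against 24.7 and 20.4 in H82 and SHP-77. Of 38 homologous recombination and Fanconi genes, 6 were higher and 5 lower, so 28.9% were called, again beside 39%. SLX4, a nuclease scaffold, was past 2-fold at 94.8 and 124 CPM in H187 and H209 against 25.6 and 42.5 in H82 and SHP-77. Of 26 integrated stress response genes, 2 were higher and 8 lower (median -0.43), beside 19.6% and 19.4% of all genes. PHGDH, of serine synthesis, differed by -2.18 ± 0.03, SLC7A5, an amino acid transporter, by -1.95 ± 0.03, and DDIT3, a stress-response transcription factor, by 1.06 ± 0.07. DDB2, which recognises ultraviolet damage, was higher (1.79 ± 0.06).

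Zinc finger genes with ZNF symbols were more often higher than lower in the ISL1-high lines. Of 404 tested, 188 were higher and 18 lower (median 0.59), beside 19.6% and 19.4% of all genes. By at least 2-fold in every pair, 30 were higher and 4 lower. On chromosome 19, which carries the large clusters of KRAB zinc finger repressors, 113 of 189 were higher and 2 lower (median 0.78). Elsewhere 75 of 215 were higher and 16 lower (median 0.43). The other 620 genes of chromosome 19 were 124 higher and 151 lower, with a median of -0.07. ZNF829 stood at 25.7 and 31.0 CPM in H187 and H209 against 1.96 and 5.16 in H82 and SHP-77, and ZNF836 at 20.7 and 20.2 CPM in H187 and H209 against 2.25 and 3.79 in H82 and SHP-77. ZNF695, on chromosome 1, was lower at 0.935 and 1.01 CPM in H187 and H209 against 28.7 and 5.19 in H82 and SHP-77. The chromosome 19 median was above 0 in each line pair, at 0.64 to 0.97. Clustered ZNF genes resemble one another in sequence, and how reads that match several of them were counted is not given in the sources used here.

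Neighbouring genes often differed in the same direction. Median differences by chromosome ranged from -0.33 on chromosome 17 and -0.28 on chromosome 3 to 0.34 on chromosome 18 and 0.33 on chromosome 4. On chromosome 18 the median level relative to the mean of the 4 lines was -0.17 in H187 and 0.51 in H209. There it was -0.32 in H82 and -0.04 in SHP-77, so H187 lay below SHP-77. Of 225 windows of 10 Mb with at least 20 tested genes, 37 had a median of at least 0.5 in size. Between 10 and 20 Mb of chromosome 17, 41 of 54 genes were lower and 0 higher (median -1.12), SREBF1 and LRRC75A-AS1 among them. In the first 10 Mb of chromosome 4, 40 of 63 were higher and 0 lower (median 1.00), MXD4 among them. On chromosome 11 between 10 and 20 Mb, 26 of 44 were higher and 2 lower (median 0.98), including TEAD1, a DNA-binding partner of YAP, at 577 and 662 CPM in H187 and H209 against 207 and 221 in H82 and SHP-77, and KCNJ11. Gene lists with members in such windows share their position as well as their function, and the part of position in their differences was not tested.

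The same lines under lurbinectedin gave a second set of 12 libraries that the DMSO comparison did not use. There 4589 genes (40.2%) met the rule and 640 (5.61%) were at least 2-fold apart in every pair. All 338 higher and all 282 lower genes of the 2-fold DMSO set kept their sign, 337 and 282 met the call again, and 278 and 238 were again 2-fold in every pair. The median difference of the higher genes was 2.10 under DMSO and 2.09 under lurbinectedin, and of the lower genes -2.21 and -2.11. The libraries come from the same 4 lines, so this repeats the measurement and not the sampling of lines. The class difference itself changed with treatment for 3580 genes (31.4%, edgeR interaction). ISL1 was not among them, at -0.07 ± 0.13 (adjusted p = 0.72). INHBE went from -2.31 to -0.65, a change of 1.66 ± 0.08 (adjusted p = 3.7e-19). DDIT3 went from 1.06 to 2.36, a change of 1.30 ± 0.08 (adjusted p = 1.6e-15). BBC3 turned from -0.81 to 0.46, a change of 1.27 ± 0.15 (adjusted p = 1.7e-08).

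**Figure D5:**
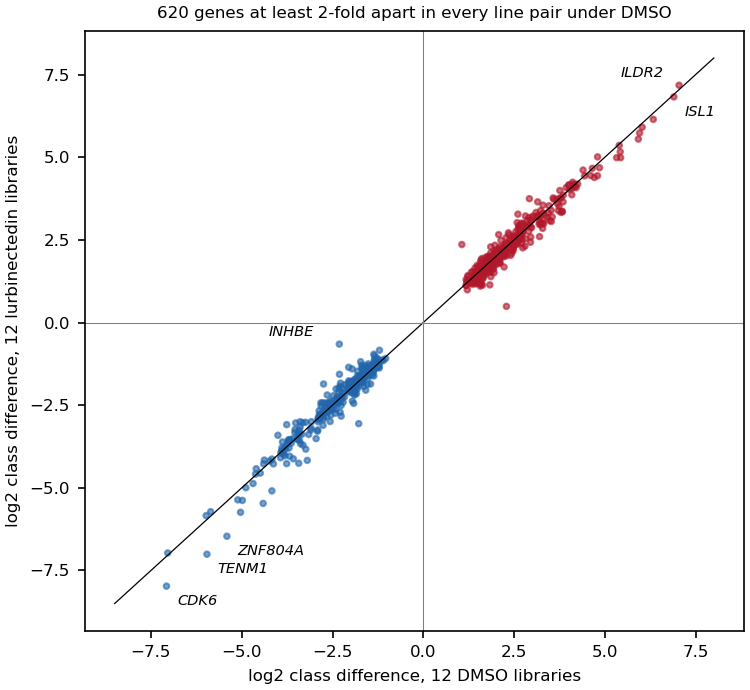
Log2 class difference in the 12 lurbinectedin libraries against that in the 12 DMSO libraries for the 620 genes at least 2-fold apart in every line pair under DMSO, 338 higher (red) and 282 lower (blue), with the line of equality. All 620 points keep their sign; CDK6, TENM1 and ZNF804A lie below the line and INHBE above it.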

How the data were processed

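STAR 2.7.10a, Subread 2.0.3 with featureCounts, and edgeR 4.2.0 are named by the submitters' processing notes, with build hg38. Annotation, strand setting and any filtering before deposit are not given in the sources used here. Per the labels, libraries were stranded total RNA from 100 ng with ribosomal RNA depleted. Per the file headers, the 5 deposited tables hold raw counts, the authors' log2 CPM, log2 fold change, signed fold change (a score) and p-value or FDR. The DMSO counts of the 4 line tables were joined on 11408 shared genes; 160491 treated counts were identical in the class table. In R 4.3.3, edgeR 4.0.16 was run with filterByExpr defaults (minimum count 10), TMM scaling, a mean per line and glmQLFTest; limma 3.58.1 and DESeq2 1.42.0 gave alternatives, beside RLE factors, no filter, 1 CPM in every line, replicate blocks, all 24 samples, and single libraries or lines left out. On simulated counts the test was checked for known changes. Lines of a class did not differ in that simulation, so it did not cover the spread among lines. CPM of genes outside the shared set use each table's own total. The authors' log2 values, score and p-value columns entered only as deposited, the p-value for 1 alternative.

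Named were a panel (ISL1, INSM1, DLL3 and MYCL, with REST and NKX2-1 not listed for all 4 lines), the 12 largest differences each way among protein-coding genes 2-fold apart in every pair whose mean log2 CPM reached 1, up to 4 called members per list with the largest smallest-pair difference, and the 6 highest CPM each way; some items are not reported here. Other list members, and genes listed for 1 class only, were chosen after their values were seen. The comparison, the members and the lists were chosen with earlier results of these data known, and symbols that a family pattern took in wrongly (PAXX in the homeobox list, for example) were removed after their values were seen. Symbols are those of the files; 11275 of the shared genes had a biotype in RefSeq (GRCh38.p14), which also gave the upstream windows, less the 50 bases after each start.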

Additional observations from a re-analysis of the deposited data

Results flagged for a closer look

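For 6 of the 24 genes with the largest differences, the class difference under lurbinectedin departed from that under DMSO (edgeR interaction, adjusted over 11408 genes, of which 31.4% passed). CDK6 moved by -0.90 ± 0.13 (SE, adjusted p = 1.1e-06), from -7.07 to -7.97. TENM1 moved by -1.05 ± 0.16 (adjusted p = 3.3e-06), from -5.96 to -7.01, and ZNF804A by -1.05 ± 0.23 (adjusted p = 0.00045), from -5.41 to -6.46. TRHDE moved by -0.71 ± 0.16 (adjusted p = 0.00079) and ESRRG by -0.40 ± 0.12 (adjusted p = 0.023). All 5 are lower in the ISL1-high lines, and the difference widened. Their levels in the high lines lie at or below 10 CPM. LOC728392, higher in those lines, moved by -0.44 ± 0.09 (adjusted p = 0.00018), from 5.43 to 4.99, which narrowed it.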

How the results depend on the processing

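Against 4449 genes called and 620 at least 2-fold in every pair, RLE factors gave 4447 and 626, DESeq2 4442 and 620, a mean of 1 CPM in every line 4156 and 503, all 24 samples 4445 and 618, and a call in each of the 4 pairs 3482 and 620. Leaving out single libraries gave 4433 to 4466 and 613 to 628. Replicate number as a block gave 4450 and 620 and changed no call of a named gene; same-numbered libraries did not deviate together (r from -0.198 to 0.15, with 2 of 18 pairs over 0.1). Line as the unit (limma) gave 0 and 0. Leaving out a line loosened the rule to 2 pairs: 7417 and 1604 without H187, 7582 and 1871 without H209, 7778 and 1728 without H82, and 8172 and 2482 without SHP-77. No sign rule gave 10159, a class difference of at least 1 gave 2065, and 4-fold in every pair gave 125. Reversals were INSM1 at -0.25 without H82, DLL3 at 0.25 without H209 and 0.50 without SHP-77, and, in lurbinectedin libraries, BBC3 at 0.46 and SHMT2 at 0.0608. The causes were not tested. The authors' deposited class table under lurbinectedin gave 5478 genes by FDR under 0.05 alone, over its 14463 genes. The 4589 called here also needed the same sign in all 4 pairs and came from the 11408 shared genes. The counts thus rest on unlike rules and gene sets, and 3719 genes were in both. Of 185 named genes, all but INSM1, DLL3 and MYCL were called. All 182 called genes lost their call with line as the unit. The call was lost for 7 with a call needed in each pair and for 8, beside the 2 that reversed, in lurbinectedin libraries. With a mean of 1 CPM needed in every line, 152 named genes kept their result and 1 lost its call. The rest of the 185, GPRIN3 and AP1M2 among them, fell below that level and could not be assessed there. Genes near 1 CPM rest on few counts a library, which limits small differences there.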
